A study of Homo sapiens with 12 samples.

Results

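The genes described here encode the epidermal growth factor receptor family and what binds it from outside and inside: 3 receptors (EGFR, ERBB2, ERBB3), 6 ligands (AREG, EREG, HBEGF, TGFA, BTC, EPGN) and the inhibitor ERRFI1. Members were all probes that the array annotation assigns to these 10 genes. Of the 10, 8 had a named probe and all 8 entered the tests, out of 13293 genes tested. The amphiregulin gene AREG and the epigen gene EPGN were not analysed here, because no probe is assigned to either in the annotation used. The 8 genes had 16 probes, of which 12 passed the filter of a detection p below 0.05 on 3 arrays or more. The other 4, 2 for EGFR and 2 for ERBB2, were detected on 0 arrays and did not pass.

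Expression was measured in UM-UC9 and UM-UC14, established human urothelial (bladder) cancer cell lines, with 1 Illumina bead array for each RNA sample. UM-UC9 cells were either untreated or given rosiglitazone, a PPARG agonist, for 24 hours at a dose of 1 µM. In UM-UC14 the groups differed in the short hairpin RNA (shRNA) the cells carried, which was non-targeting in one and directed at FABP4 in the other. FABP4 encodes a cytoplasmic fatty acid carrier and is a target gene of PPARG. Each of the 4 groups held 3 arrays, replicates 1 to 3. The hairpin sequences, the number of clones and the vehicle, if any, are not stated in the labels. The labels also do not say whether replicates were separate cultures, so p-values measure only the spread between these samples, which may be technical.

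As background, ERBB receptors sit in the plasma membrane and pair after a ligand binds, and the paired kinases then feed the RAS and ERK cascade and PI3 kinase. EGFR binds the ligands measured here, ERBB2 has no known soluble ligand and serves as the preferred partner, and ERBB3 has little kinase activity of its own and binds neuregulins. The ligands are made as membrane-anchored precursors that ADAM proteases cut free, while ERRFI1 (also called MIG6) is induced by receptor signalling, binds the kinase domain and switches the receptor off. In urothelium these receptors are known for their part in growth and repair, and EGFR and ERBB2 are raised in subsets of bladder cancer.

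On an array, 20892 to 22407 of 47323 probes were detected, and the median raw intensity lay between 52.8 and 62.6. FABP4 followed the labels: its normalized log2 intensity was 10.96 ± 0.13 in untreated UM-UC9, 14.66 ± 0.05 with rosiglitazone, 14.04 ± 0.10 in the non-targeting group and 10.33 ± 0.19 in cells carrying FABP4 shRNA (SD, n = 3 each). Non-targeting replicate 1 stood apart, correlating at 0.989 with the FABP4 shRNA group mean and at 0.988 with the mean of the other 2 arrays of its own group, across all tested genes. For some members, values are given below with and without this array. Fold changes of the other genes named below are given with it only. A value against it alone comes from a fit that assumes this lone array to vary like those of the other groups. Of 11 urothelial and epithelial markers, EPCAM, CDH1, KRT7, KRT8, KRT18, KRT19, GATA3 and UPK2 were detected on all 12 arrays, and the uroplakin gene UPK3A was detected on 0. KRT5, a keratin of basal cells, was detected on 9 arrays, fell by 2.10 with rosiglitazone (adjusted p = 9.8e-07), and in UM-UC14 stood at least 2.83-fold higher on FABP4 shRNA arrays (adjusted p = 2.3e-05), being detected on 0 of the non-targeting ones. KRT7, KRT18 and KRT19 rose with rosiglitazone by 0.81, 0.46 and 0.34 (adjusted p = 0.00046, 0.0066 and 0.023). CDH1, GATA3 and UPK2 fell with FABP4 shRNA by 0.48, 0.78 and 0.40 (adjusted p = 0.0022, 0.0057 and 0.045). The summed normalized intensity of the 9 tested epithelial markers was 50064 to 51916 in untreated UM-UC9, 60129 to 60792 with rosiglitazone, 49690.0 to 52595 with non-targeting shRNA and 51069.6 to 56313 with FABP4 shRNA. The 4 tested fibroblast markers summed to 226 to 251 in untreated UM-UC9 and 284 to 303 with rosiglitazone. In UM-UC14 the sums were 387 to 559 with non-targeting shRNA and 707 to 751 with FABP4 shRNA. LUM was detected on all 12 arrays and rose by 0.75 with rosiglitazone and 0.65 with FABP4 shRNA (adjusted p = 0.0049 and 0.017). COL1A1 rose by 0.90 with FABP4 shRNA (adjusted p = 0.001). COL1A2 and DCN passed in neither experiment, and COL3A1 and PDGFRB were detected on 0 arrays. The 3 tested blood and endothelial markers were summed in the same order of groups. The sums were 311 to 341, 420 to 426, 199 to 359 and 198 to 232. PECAM1 was detected on all 12 arrays and rose by 0.53 with rosiglitazone (adjusted p = 0.0036), while CD14 fell by 0.52 (adjusted p = 0.011). CDH5 was detected on 0 UM-UC9 arrays and fell by 1.70 with FABP4 shRNA (adjusted p = 0.004). PTPRC, CD3E and VWF were detected on 0 arrays. The 2 tested adipocyte markers summed to 162 to 209, 95.4 to 150.0, 143 to 177 and 178 to 195. LEP was detected on all 12 arrays and fell by 0.67 with rosiglitazone (adjusted p = 0.0067). CIDEC, detected on 4 arrays, passed in neither experiment, and ADIPOQ and PLIN1 were detected on 0. The part of these markers in the results below was not tested. In bulk RNA, fewer cells of a type and less RNA per cell cannot be told apart.

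ERBB3 and EREG changed with rosiglitazone in UM-UC9, and EGFR, HBEGF and ERRFI1 with FABP4 shRNA in UM-UC14. With rosiglitazone, 2 of 8 tested members passed an adjusted p of 0.05 (ERBB3 rose and EREG fell), against 36% of all tested genes. With FABP4 shRNA, 3 of 8 passed (EGFR, HBEGF and ERRFI1, all lower), against 26.3% of all tested genes. With 8 members, neither count stands far from that background. The median log2 fold change of the 8 was 0.081 with rosiglitazone (all genes -0.017) and -0.16 with FABP4 shRNA (all genes 0.019). The tests were limma's moderated tests on normalized log2 intensity, with Benjamini-Hochberg adjustment over all 13293 genes, and standard errors (SE) are those of that model. Median scaling moved the median of all genes from 0.019 to 0.099 with FABP4 shRNA, and the share of called genes that were higher from 53.8% to 70%, but the same 3 members passed. Between lines it moved the median from -0.015 to -0.15 and that share from 50% to 39.7%, and for the difference of the changes from -0.039 to -0.15 and from 46% to 33.1%.

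**Figure D1:**
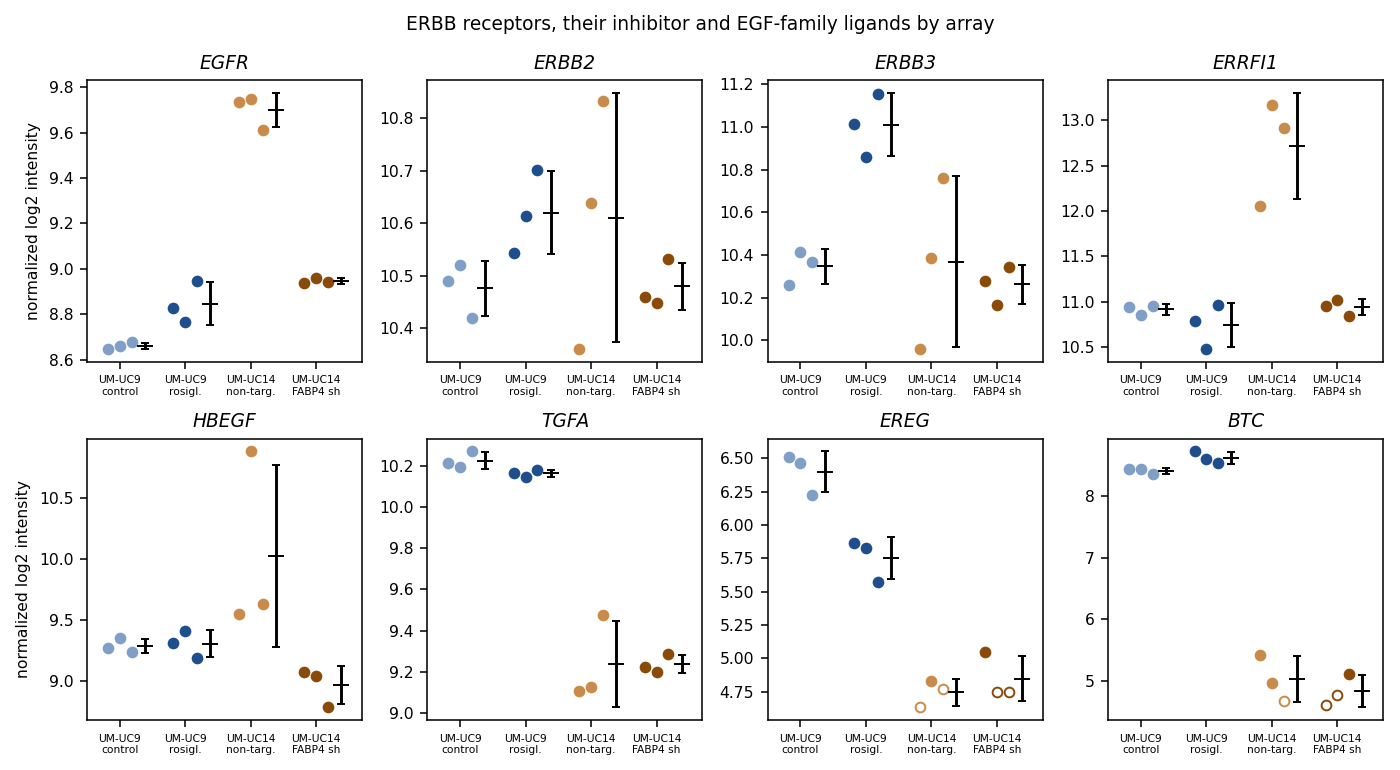
Normalized log2 intensity (vertical axis, its range set for each gene) of the 8 tested genes on each of 12 arrays, with 3 points per group in the order of replicates 1 to 3. Open points are arrays where the probe was not detected at p below 0.05, and the black bar beside each group is the mean and SD. EGFR, HBEGF and ERRFI1 stand higher on the non-targeting arrays than in the other 3 groups, and EREG and BTC stand higher in UM-UC9 than in UM-UC14.

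EGFR, the receptor that the 4 measured ligands bind, was lower in UM-UC14 with FABP4 shRNA. In that line the log2 intensity was 9.74, 9.75 and 9.61 on the non-targeting arrays and 8.94, 8.96 and 8.94 on the FABP4 shRNA arrays. All 3 control arrays were above all 3 shRNA arrays, and the gap was several times the spread within either group. EGFR fell by 0.75 on the log2 scale (SE 0.084, 1.68-fold, adjusted p = 6.8e-05), and by 0.73 without non-targeting replicate 1. In UM-UC9 the values were 8.65, 8.66 and 8.68 untreated and 8.83, 8.76 and 8.95 with rosiglitazone. These groups did not overlap either, but the difference of 0.19 (SE 0.084, 95% interval 0.0034 to 0.37) missed the threshold with an adjusted p of 0.1. With array quality weights in the fit it was 0.18 and passed, with an adjusted p of 0.048.

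A second EGFR probe, which the annotation assigns to another transcript, gave a smaller difference. ILMN_1696521 read 6.60, 6.90 and 6.95 with non-targeting shRNA and 6.45, 6.62 and 6.61 with FABP4 shRNA, and the groups overlapped. Its log2 fold change was -0.26 (SE 0.14, adjusted p = 0.21 over all 25176 kept probes), in the direction of ILMN_1798975, the probe that represents the gene, but short of the threshold. With rosiglitazone the second probe differed by 0.27 (SE 0.14, adjusted p = 0.17). The fall of EGFR with FABP4 shRNA was thus called by 1 of its 2 kept probes, and their mean fell by 0.51 (adjusted p = 0.0027 over all genes). Across all kept probes, 28.7% passed with rosiglitazone and 21.4% with FABP4 shRNA.

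ERBB2, the partner receptor without a known soluble ligand, passed the threshold in neither experiment. It read 10.49, 10.52 and 10.42 in untreated UM-UC9 and 10.54, 10.61 and 10.70 with rosiglitazone, which did not overlap and differed by 0.14 (95% interval -0.095 to 0.38, adjusted p = 0.35). In UM-UC14 it read 10.36, 10.64 and 10.83 with non-targeting shRNA and 10.46, 10.45 and 10.53 with FABP4 shRNA. The control arrays spread on both sides of the shRNA arrays, with replicate 1 the lowest, and the difference was -0.13 (95% interval -0.37 to 0.11, adjusted p = 0.42). Without non-targeting replicate 1 it was -0.26 and passed, with an adjusted p of 0.041. The sign turned, to 0.024, when arrays were scaled by their medians instead of by quantiles. These values rest on 1 kept probe, ILMN_2352131, with raw intensities from 1395 to 1678. Another probe assigned to the same transcript, ILMN_1728761, had raw intensities from 38.7 to 55.4 and was detected on 0 arrays.

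ERBB3, the neuregulin receptor with weak kinase activity, was higher in UM-UC9 with rosiglitazone. The untreated arrays read 10.26, 10.42 and 10.37 and the rosiglitazone arrays 11.02, 10.86 and 11.16. Every treated array lay above every untreated one. ERBB3 rose by 0.66 on the log2 scale (SE 0.16, 1.58-fold, adjusted p = 0.0054). Its other 2 kept probes rose as well, ILMN_1737993 by 0.38 (adjusted p = 0.02 over all kept probes) and ILMN_2397602 by 0.38 (adjusted p = 0.03).

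The 3 ERBB3 probes did not give the same answer in UM-UC14. The annotation assigns the probe that represents the gene to a different transcript than the others. The probe that represents the gene, ILMN_1751346, read 9.96, 10.38 and 10.76 with non-targeting shRNA and 10.28, 10.17 and 10.34 with FABP4 shRNA. The control arrays straddled the shRNA arrays, and the difference of -0.11 (95% interval -0.45 to 0.24) had an adjusted p of 0.67. It was 0.043 under median scaling and 0.30 against non-targeting replicate 1 alone, and -0.31 (adjusted p = 0.062) without that array, so that this probe has no settled sign in UM-UC14. By contrast, ILMN_2397602 read 5.80, 6.10 and 6.10 with non-targeting shRNA and 5.44, 5.23 and 5.43 with FABP4 shRNA, without overlap. It fell by 0.64 (SE 0.12, adjusted p = 0.0026), and ILMN_1737993 differed by -0.27 (adjusted p = 0.11). ILMN_2397602 is a dim probe, with raw intensities from 71.3 to 119 over the 12 arrays. The mean of the 3 probes fell by 0.34 with an adjusted p of 0.018 over all genes.

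**Figure D2:**
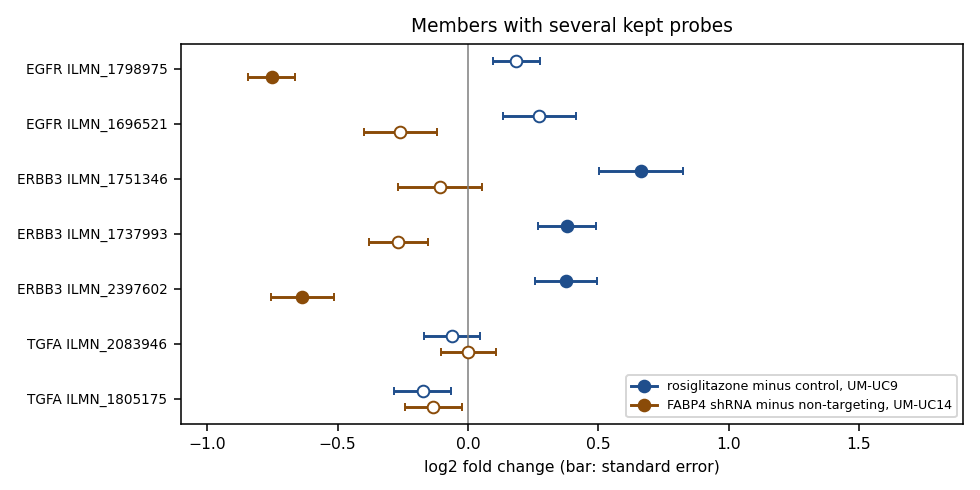
Log2 fold change (horizontal axis) with rosiglitazone and with FABP4 shRNA for each kept probe of the 3 genes that had several, with standard errors as bars and filled points for an adjusted p below 0.05 over all kept probes. All 3 ERBB3 probes lie to the right with rosiglitazone, while with FABP4 shRNA 1 of 2 EGFR probes and 1 of 3 ERBB3 probes pass, and neither TGFA probe passes in either experiment.

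Among the ligands, EREG (epiregulin, which binds EGFR and ERBB4) was lower with rosiglitazone. It read 6.51, 6.47 and 6.22 on untreated UM-UC9 arrays and 5.87, 5.82 and 5.57 on rosiglitazone arrays, and was detected on all 6. The groups did not overlap. EREG fell by 0.65 on the log2 scale (SE 0.12, 1.57-fold, adjusted p = 0.0011). It is a dim probe, and without background correction the fall was 0.43 (adjusted p = 0.0012). In UM-UC14 it read 4.63, 4.83 and 4.77 with non-targeting shRNA and 5.05, 4.75 and 4.75 with FABP4 shRNA. It was detected on 1 of 3 arrays in each of these groups, so the difference of 0.10 (adjusted p = 0.58) is one between values near the detection limit.

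HBEGF, the heparin-binding ligand, was lower with FABP4 shRNA. The non-targeting arrays read 9.55, 10.88 and 9.63 and the FABP4 shRNA arrays 9.07, 9.04 and 8.78. The groups did not overlap, but non-targeting replicate 2 lay far above the other 2 control arrays. HBEGF fell by 1.06 on the log2 scale (SE 0.25, 2.08-fold, adjusted p = 0.0088). Without non-targeting replicate 2 the fall was 0.63 (adjusted p = 0.0033), and against non-targeting replicate 1 alone it was 0.59. In a fit to the UM-UC14 arrays only, the fall of 1.06 had an adjusted p of 0.063. In UM-UC9 the values were 9.27, 9.35 and 9.24 untreated and 9.30, 9.41 and 9.19 with rosiglitazone, which overlapped. That difference was 0.017, with a 95% interval from -0.53 to 0.57, and its sign turned under median scaling (-0.069).

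TGFA, transforming growth factor alpha, passed in neither experiment, with either of its 2 probes. It read 10.21, 10.19 and 10.27 untreated and 10.16, 10.15 and 10.18 with rosiglitazone, a difference of -0.061 (95% interval -0.28 to 0.16, adjusted p = 0.69). In UM-UC14 it read 9.11, 9.13 and 9.48 with non-targeting shRNA and 9.23, 9.20 and 9.29 with FABP4 shRNA, a difference of 0.0021 (95% interval -0.22 to 0.22, adjusted p = 0.99). The rosiglitazone groups just missed overlapping, and the shRNA groups overlapped.

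BTC, betacellulin, which binds EGFR and ERBB4, was measured clearly in UM-UC9 only. It read 8.44, 8.44 and 8.36 untreated and 8.73, 8.61 and 8.53 with rosiglitazone, a difference of 0.21 (95% interval -0.14 to 0.57, adjusted p = 0.35). The groups did not overlap, but the interval of the difference included 0. In UM-UC14 it read 5.42, 4.97 and 4.68 with non-targeting shRNA, detected on 2 of 3 arrays, and 4.61, 4.77 and 5.12 with FABP4 shRNA, detected on 1 of 3. That difference was -0.19 (adjusted p = 0.43), and against non-targeting replicate 1 alone it was -0.59.

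ERRFI1, the inhibitor that binds the kinase domain of ERBB receptors, had the largest fold change of the 8 members in either experiment. It read 12.06, 13.17 and 12.92 on non-targeting arrays and 10.96, 11.02 and 10.84 on FABP4 shRNA arrays. All control arrays were above all shRNA arrays by at least 1 log2 unit, with replicate 1 the lowest control. ERRFI1 fell by 1.77 on the log2 scale (SE 0.22, 3.42-fold, adjusted p = 0.00012). The fall was 2.10 without non-targeting replicate 1 and 1.11 against that array alone. In UM-UC9 it read 10.95, 10.85 and 10.95 untreated and 10.79, 10.48 and 10.96 with rosiglitazone. Those groups overlapped, and the difference was -0.17 (95% interval -0.64 to 0.29, adjusted p = 0.59).

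**Figure D3:**
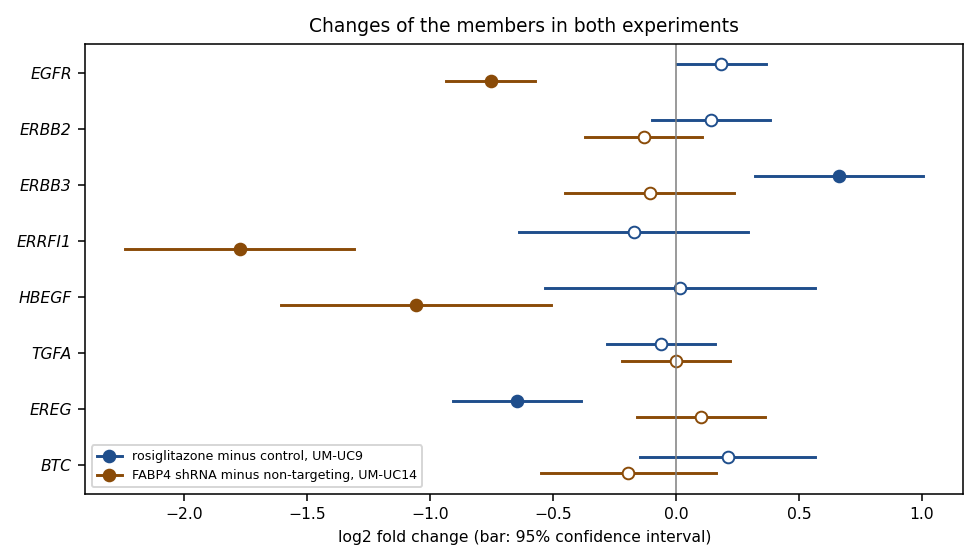
Log2 fold change (horizontal axis) of the 8 tested genes with rosiglitazone in UM-UC9 and with FABP4 shRNA in UM-UC14, with 95% confidence intervals as bars and filled points for an adjusted p below 0.05. ERBB3 rose and EREG fell with rosiglitazone, and EGFR, HBEGF and ERRFI1 fell with FABP4 shRNA. The intervals of the other points include 0, except that of EGFR with rosiglitazone (0.0034 to 0.37), which did not pass after adjustment.

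**Figure D4:**
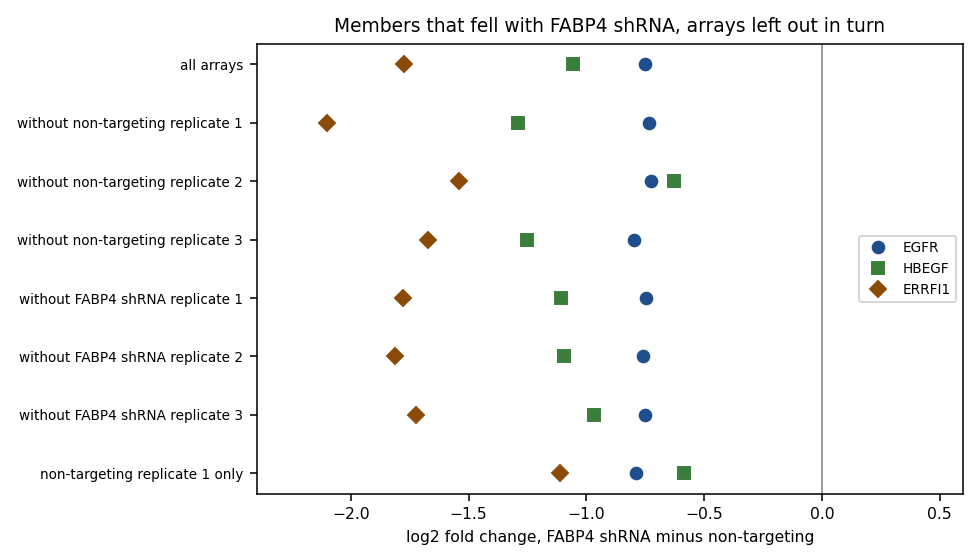
Log2 fold change with FABP4 shRNA (horizontal axis) of EGFR, HBEGF and ERRFI1 with all arrays, without each UM-UC14 array in turn, and against non-targeting replicate 1 alone. EGFR stays between -0.80 and -0.73, whereas HBEGF and ERRFI1 move with which control arrays are used and remain below 0.

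Groups did not overlap for 6 of 8 members with rosiglitazone, against 53.9% of all tested genes, and for 3 of 8 with FABP4 shRNA, against 36.5%. Of those 6, ERBB3 and EREG passed the adjusted threshold, and EGFR, ERBB2, TGFA and BTC did not.

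The rosiglitazone and shRNA changes were set against each other in the same model, as the change with rosiglitazone minus the change with FABP4 shRNA. This compares a drug in one line with a hairpin in another, so the perturbation and the line cannot be told apart. The difference passed for 5 of 8 members, against 41.5% of all tested genes. It was 0.94 for EGFR (adjusted p = 6.6e-05), 0.77 for ERBB3 (adjusted p = 0.014), -0.75 for EREG (adjusted p = 0.0035), 1.07 for HBEGF (adjusted p = 0.029) and 1.60 for ERRFI1 (adjusted p = 0.0011). For ERBB3 it was 0.36 against non-targeting replicate 1 alone, with an adjusted p of 0.099, and 0.97 without that array. For ERRFI1 it was 0.94 and 1.93 in the same order. For EGFR it was 0.53 with the second probe, which did not pass (adjusted p = 0.052 over all kept probes). With the mean of both EGFR probes it was 0.73 (adjusted p = 0.0011 over all genes). For HBEGF it was 0.64 without non-targeting replicate 2. For EREG it was -0.49 without background correction. EREG was detected on 1 of 3 arrays in each UM-UC14 group, so a fall there could hardly be measured. ERBB2 differed by 0.28 (adjusted p = 0.18), TGFA by -0.063 (adjusted p = 0.75) and BTC by 0.40 (adjusted p = 0.18), none of which passed.

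Between the control groups, UM-UC14 with non-targeting shRNA had more EGFR and ERRFI1 and less EREG and BTC than untreated UM-UC9. These 4 of 8 members passed both an adjusted p of 0.05 and a fold of 2, against 25.9% of all tested genes. This comparison and the shRNA comparison share the non-targeting arrays, and cell line, vector and hairpin cannot be told apart in it. BTC was 10.5-fold lower (log2 difference -3.39, SE 0.17, adjusted p = 2.9e-10) and EREG 3.15-fold lower (-1.65, SE 0.12, adjusted p = 2.5e-08). With non-targeting shRNA BTC was detected on 2 of 3 arrays and EREG on 1 of 3, with an EREG mean of 4.75 below the detection limits of those arrays, so the size of either difference depends on the background correction. ERRFI1 was 3.48-fold higher (1.80, SE 0.22, adjusted p = 4.7e-06) and EGFR 2.05-fold higher (1.04, SE 0.084, adjusted p = 8.4e-08). Without background correction the BTC difference was -2.51, and the EGFR and EREG differences were 0.98 and -0.997, just under a fold of 2, so those 2 calls depend on where the fold threshold is set. The second EGFR probe differed by 0.56 (adjusted p = 0.0032 over all kept probes) and the mean of both by 0.80 (adjusted p = 7e-06), again under a fold of 2. The ERRFI1 difference was 2.13 without non-targeting replicate 1 and 1.14 with that array alone. Under median scaling EGFR was higher by 0.82 and TGFA differed by -1.19 on the log2 scale, so that TGFA passed in place of EGFR. TGFA was 1.98-fold lower (-0.99, adjusted p = 9.9e-07) and its second probe differed by -1.04 on the log2 scale (adjusted p = 1.1e-06). HBEGF was 1.66-fold higher (0.73, adjusted p = 0.02), of which 0.30 remained without non-targeting replicate 2. ERBB2 differed by 0.14 (adjusted p = 0.3) and ERBB3 by 0.022 (adjusted p = 0.91).

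The order of the 4 groups can be read gene by gene. A step between neighbours passed here at an adjusted p below 0.05 alone. The fold of 2 required of calls between lines elsewhere was not applied to these steps. For EGFR the means ran from 9.70 ± 0.075 in UM-UC14 with non-targeting shRNA, through 8.95 ± 0.013 with FABP4 shRNA and 8.85 ± 0.094 in UM-UC9 with rosiglitazone, to 8.66 ± 0.014 untreated (SD, n = 3 each). Among these neighbours only the first step passed the threshold, and FABP4 shRNA cells did not differ detectably from rosiglitazone-treated UM-UC9 (0.099, adjusted p = 0.32). For ERRFI1 the first mean was 12.71 ± 0.59 and the other 3 were 10.94 ± 0.091, 10.92 ± 0.056 and 10.75 ± 0.24 (FABP4 shRNA, untreated, rosiglitazone). ERRFI1 with FABP4 shRNA and in untreated UM-UC9 differed by 0.027 (95% interval -0.44 to 0.49, adjusted p = 0.92). For HBEGF the first mean was 10.02 ± 0.75, and the other 3 lay between 9.30 ± 0.11 and 8.96 ± 0.16 with no neighbouring pair past the threshold. For ERBB3 rosiglitazone-treated UM-UC9 stood first at 11.01 ± 0.15, and the other 3 groups lay between 10.37 ± 0.40 and 10.26 ± 0.089, with the first step past the threshold and no other. For EREG the order was untreated UM-UC9 (6.40 ± 0.15), rosiglitazone (5.75 ± 0.16) and then both UM-UC14 groups (4.85 ± 0.17 and 4.75 ± 0.10), with the first 2 steps past the threshold. No step between neighbours passed for ERBB2, whose 4 means lay between 10.48 and 10.62. For TGFA both UM-UC9 groups (10.22 ± 0.040 and 10.16 ± 0.017) stood above both UM-UC14 groups (9.24 ± 0.21 and 9.24 ± 0.045), and BTC likewise (8.62 ± 0.098 with rosiglitazone and 8.41 ± 0.047 untreated, then 5.03 ± 0.37 and 4.83 ± 0.26). In both genes only the step between the lines passed, which for TGFA was 0.92, under a fold of 2.

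The promoters of the 3 genes that fell with FABP4 shRNA are shown because these members moved together. RefSeq promoter sequences (GRCh38.p14) were available for 9 of the 10 genes, ERBB3 being the exception, with 2 start sites each for EGFR and TGFA, 11 in all. The 250 bases before the start are printed 5′ to 3′ on the strand of the gene. For EGFR the start of the full-length gene on chromosome 7 is used.
EGFR, chr7:55018767-55019016, plus strand: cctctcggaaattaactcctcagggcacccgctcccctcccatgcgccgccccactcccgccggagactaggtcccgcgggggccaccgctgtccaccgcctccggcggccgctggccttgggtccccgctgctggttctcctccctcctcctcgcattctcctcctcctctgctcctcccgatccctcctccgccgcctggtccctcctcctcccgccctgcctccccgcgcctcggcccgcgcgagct
HBEGF, chr5:140346604-140346853, minus strand: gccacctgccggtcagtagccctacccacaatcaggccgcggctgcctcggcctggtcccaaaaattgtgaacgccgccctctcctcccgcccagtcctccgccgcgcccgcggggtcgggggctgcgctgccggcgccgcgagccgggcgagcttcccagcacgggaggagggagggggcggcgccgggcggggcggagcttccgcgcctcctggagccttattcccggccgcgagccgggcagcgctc
ERRFI1, chr1:8026310-8026559, minus strand: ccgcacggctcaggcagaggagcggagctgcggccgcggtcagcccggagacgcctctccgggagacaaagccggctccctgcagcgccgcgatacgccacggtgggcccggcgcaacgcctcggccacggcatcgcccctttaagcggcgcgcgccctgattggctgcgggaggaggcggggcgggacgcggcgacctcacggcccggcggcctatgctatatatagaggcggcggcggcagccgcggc
These windows were rich in G and C, with 73.6% for EGFR, 76.4% for HBEGF and 75.2% for ERRFI1. The median over all 35116 promoters was 58.0%. Of the members that passed in neither experiment, the first TGFA start had 75.6%, the second 64.0%, ERBB2 65.6% and BTC 62.0%. In all, 4 motifs were searched on both strands. None of the 3 windows above held the AP-1 letters TGANTCA, the cAMP response letters TGACGTCA, the PPAR and RXR direct repeat (AGGTCA, any base, AGGTCA) or the TATA box letters TATAAA. The shares of all promoters that held them were 6.57%, 1.65%, 0.0171% and 10.7% in that order. The second EGFR start, inside the gene, held TGANTCA and TATAAA, and ERBB2 held TGANTCA. Both TGFA starts and BTC held none of the 4 motifs either, so this absence was not particular to the genes that fell. No match says only that these letters are not in this window, and a match is not a binding site.

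EREG lies in a cluster of ligand genes on chromosome 4 with EPGN, AREG and BTC. The last 70 bases before each start are shown to set the members of the cluster beside each other, with TATAAA and TGACGTCA in capitals.
EPGN, chr4:74308400-74308469, plus strand: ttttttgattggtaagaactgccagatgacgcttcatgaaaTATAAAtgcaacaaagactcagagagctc
EREG, chr4:74365075-74365144, plus strand: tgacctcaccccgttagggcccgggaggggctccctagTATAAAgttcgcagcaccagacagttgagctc
AREG, chr4:74445066-74445135, plus strand: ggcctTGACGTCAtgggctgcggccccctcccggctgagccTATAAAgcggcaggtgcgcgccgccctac
BTC, chr4:74794524-74794593, minus strand: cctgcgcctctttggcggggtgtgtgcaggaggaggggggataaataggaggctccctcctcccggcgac
TATAAA stood 29 to 24 bases before the start in EPGN and AREG and 32 to 27 bases before it in EREG. BTC, the one member of the cluster on the minus strand, held none of the searched letters. AREG also held TGACGTCA, 65 to 58 bases before its start. TATAAA was thus found in 3 of these 4 promoters, against 10.7% of all promoters.

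The genes from CXCL8 to PARM1 that share this stretch of chromosome 4 were followed beside EREG. Of 11 such genes, 6 were tested, MTHFD2L had no named probe, and CXCL6, PF4V1, PF4 and CXCL3 did not pass the filter. With rosiglitazone 3 of the 6 fell and 0 rose, against 19% of all tested genes lower. CXCL5, a neutrophil chemokine, fell by 1.42 (adjusted p = 2e-07), CXCL1 by 0.64 (adjusted p = 0.016) and PPBP, the precursor of platelet basic protein, by 0.55 (adjusted p = 0.0046). CXCL2 differed by -0.59 (adjusted p = 0.099), and CXCL8 by -0.050, while PARM1 was detected on 0 arrays of either UM-UC9 group. With FABP4 shRNA 2 of the 6 fell, against 12.2% of all tested genes lower. CXCL8 (interleukin 8) fell by 2.83 (adjusted p = 0.00026), and CXCL2 was at least 1.65-fold lower (adjusted p = 0.02), since it was detected on 0 of 3 FABP4 shRNA arrays. CXCL5, the neighbour with the largest fall under rosiglitazone, was at least 18.7-fold higher in untreated UM-UC9 than in UM-UC14 with non-targeting shRNA, where it was detected on 0 of 3 arrays. In the same comparison CXCL1 differed by -2.05, PPBP by -1.78 and CXCL2 by -1.62 on the log2 scale (adjusted p = 2.6e-07, 2.5e-08 and 8.9e-05), with CXCL1 detected on 1 of 3 non-targeting arrays, and PARM1 was at least 1.99-fold higher in UM-UC14 (adjusted p = 1.2e-06).

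Beyond the members, 51 genes of the ERBB pathway were followed in 6 groups by role, of which 45 were tested. PIK3CA had no named probe, and ERBB4, NRG1, NRG2, LRIG1 and SPRED3 did not pass the filter. With rosiglitazone 10 rose, 12 fell and 23 did not pass, with a median log2 fold change of -0.071 (all genes -0.017), against the 36% of all tested genes that passed. With FABP4 shRNA 12 rose, 8 fell and 25 did not pass, with a median of -0.0040 (all genes 0.019), against 26.3% of all tested genes. The counts depended on the arrays used, as did the share of all tested genes that passed. With rosiglitazone 14 passed without rosiglitazone replicate 3, against 27% of all tested genes. With FABP4 shRNA 28 passed without non-targeting replicate 1, against 39.5% of all tested genes. In the same contrast 26 passed with array quality weights (36.5% of all tested genes) and 11 in a fit to the UM-UC14 arrays only (13.4%).

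Among the other receptor and ligand genes, 3 of 6 were tested. NRG4, a neuregulin that binds ERBB4, rose by 1.00 with rosiglitazone (adjusted p = 8.1e-05) and differed by 0.26 with FABP4 shRNA, which did not pass. EGF and NRG3, detected on 9 and 3 arrays, passed in neither experiment. All 5 genes of ligand shedding and trafficking were tested. FRMD8, which holds iRhom proteins and the ADAM17 sheddase at the cell surface, fell by 1.00 with rosiglitazone (adjusted p = 4.7e-06) and rose with FABP4 shRNA by 0.39. The sheddase genes ADAM10 and ADAM17 themselves passed in neither.

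Of 10 tested adaptors and effectors, 3 rose and 2 fell with rosiglitazone, and 4 rose and 1 fell with FABP4 shRNA. GAB2, a docking protein for PI3 kinase and SHP2, rose by 0.77 with rosiglitazone (adjusted p = 7.4e-05) and fell by 0.67 with FABP4 shRNA (adjusted p = 0.00055). PIK3R1, the regulatory subunit of PI3 kinase, rose by 0.95 with FABP4 shRNA (adjusted p = 2.3e-05). Of 7 genes for ubiquitin ligases and endocytosis, 1 rose and 1 fell in each experiment. CBLB, a ligase that marks activated receptors for removal, rose by 0.61 with rosiglitazone (adjusted p = 0.0004) and fell by 1.00 with FABP4 shRNA (adjusted p = 2.9e-05).

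Of 11 tested inhibitors, 2 rose and 3 fell with rosiglitazone, and 4 rose and 2 fell with FABP4 shRNA. The Sprouty genes, which restrain RAS and ERK signalling, did not move together. SPRY2 fell by 1.32 with rosiglitazone (adjusted p = 1.2e-06). With FABP4 shRNA SPRY1 fell by 1.64 (adjusted p = 0.0012) and SPRY4 rose by 1.00 (adjusted p = 3e-04). Of 9 tested genes that report or limit ERK activity, 2 rose and 4 fell with rosiglitazone (median -0.56, all genes -0.017). With FABP4 shRNA 1 rose and 4 fell (median -0.46, all genes 0.019). IER3, an immediate early gene, fell by 2.30 with rosiglitazone (adjusted p = 2.8e-07) and fell by 1.07 with FABP4 shRNA (adjusted p = 0.00056). DUSP4, a nuclear phosphatase of ERK, fell by 1.31 with rosiglitazone (adjusted p = 0.0031) and FOSL1, an AP-1 subunit, by 0.88 (adjusted p = 0.00031). DUSP5, another nuclear ERK phosphatase, fell by 1.49 with FABP4 shRNA (adjusted p = 0.00014) and PHLDA1 by 1.02 (adjusted p = 0.0023). In the other direction, EGR1 rose by 0.79 and PHLDA1 by 0.65 with rosiglitazone (adjusted p = 0.0018 and 0.018). FOSL1 rose by 0.51 with FABP4 shRNA (adjusted p = 0.017).

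**Figure D5:**
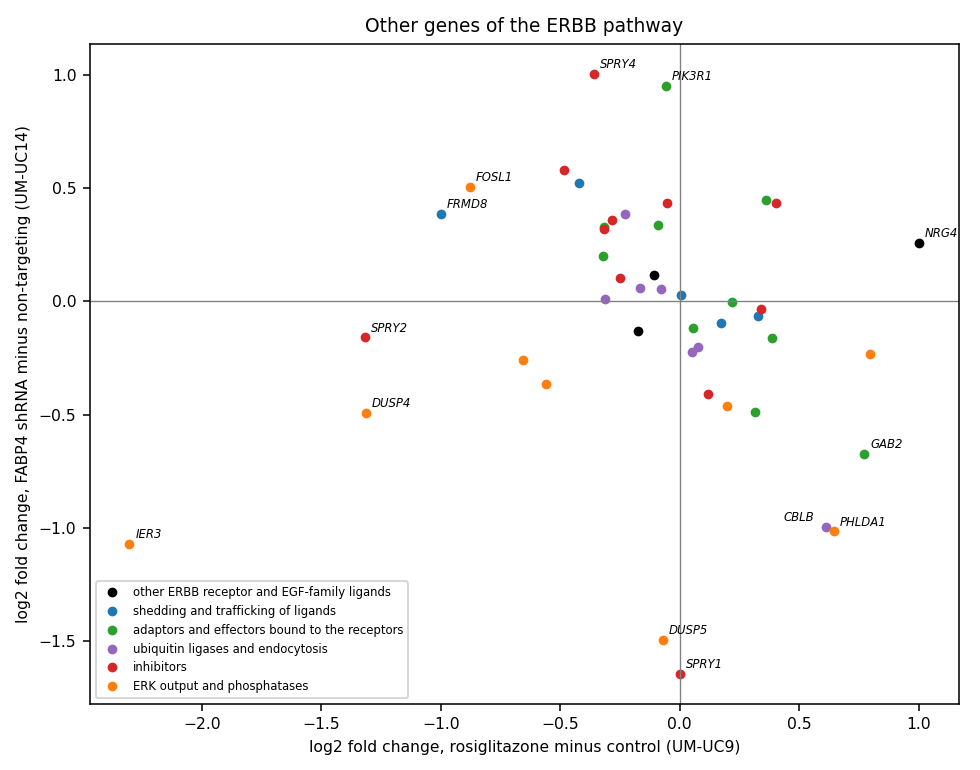
Log2 fold change with rosiglitazone in UM-UC9 (horizontal axis) against log2 fold change with FABP4 shRNA in UM-UC14 (vertical axis) for 45 tested genes of the ERBB pathway other than the members, coloured by role. Named genes passed in at least 1 experiment with a log2 fold change of at least 0.6 and are at most the 3 largest of their role in it. IER3 is the labelled gene farthest to the left, GAB2 and CBLB lie to the lower right, and FRMD8 and FOSL1 lie to the upper left.

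For each member that passed in either experiment, the genes whose pattern was most like it were named, by Pearson's r over the 12 arrays after subtracting the mean of each array's own line. These r describe arrays that share lines and groups, and the highest of 13293 genes were taken. ERRFI1 was followed by CXCL8 (r = 0.990) and EEF1AKMT3 (r = 0.986), and HBEGF by STC2 (r = 0.980) and CSAG1 (r = 0.965). CSAG1 itself differed by -0.25 with FABP4 shRNA, which did not pass (adjusted p = 0.086). How far the r of HBEGF rest on non-targeting replicate 2, where HBEGF stood highest, was not tested. EGFR was followed by TMEM125 (r = 0.983) and TAPBPL (r = 0.980). ERBB3 was followed by TRIM29 (r = 0.971) and HLA-DMA (r = 0.966), and EREG by LARP4 (r = 0.970) and CSNK1G2 (r = 0.950). CXCL8, the gene most like ERRFI1, is also one of the chromosome 4 neighbours of EREG, and with rosiglitazone it differed by -0.050 (adjusted p = 0.94), as ERRFI1 differed by -0.17.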

How the data were processed

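Gene expression was measured on 12 Illumina bead arrays, 1 for each RNA sample. The authors deposited a raw intensity for each of 47323 probes per array, on a linear scale and not normalized, and beside each intensity a detection p-value. The authors also deposited processed values, which are log2 intensity with the same sorted values on every array, as quantile normalization gives. The scanner software is not given in the sources used.

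Raw intensities were corrected with neqc in limma 3.58.1 under R 4.3.3 (normexp background from the detection p-values, offset 16, quantile normalization, log2). Quantile normalization hides a shift of all genes in 1 direction. Probes were kept if detected at p below 0.05 on 3 or more of the 12 arrays, 25176 in all. Each of 13293 genes was represented by its kept probe with the highest mean. The annotation names 1 gene for 30113 probes and several for 8. A linear model with 4 group means (8 residual and 5.43 prior degrees of freedom) was fitted to all arrays with lmFit and eBayes. A call required p below 0.05 after Benjamini-Hochberg adjustment, and between lines also at a fold of at least 2. A fold against a group with no detected array is a bound against that group's detection limit. The procedure was tested on simulated data. Precision is limited by the number of arrays.

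The members and gene lists were chosen with earlier results of these data known. All members are named. Of the pathway list, called genes with a log2 fold change of at least 0.6 in size are named, at most 3 per role and contrast, and the 2 genes most correlated with each called member are named. The called ERK genes that rose are given as well. The labels name no pairing of samples, and replicate numbers were not used as pairs. The deviations of same-numbered arrays correlated between -0.036 and 0.15, and those of differently numbered arrays between -0.12 and 0.067. With 3 arrays per group these values cannot settle whether samples were paired. Alternatives covered background correction, the deposited processed values, median scaling, the detection filter, the mean of all probes, array weights, a replicate block, fits to 1 line, and leaving out each array. Promoters were taken from RefSeq (GRCh38.p14) and drawn on for sequence only. Protein sequences were not used here, so the planned search of EGF-like domains was not run.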

Additional observations from a re-analysis of the deposited data

Results flagged for a closer look

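For 5 members the change with rosiglitazone in UM-UC9 differed from the change with FABP4 shRNA in UM-UC14, by limma's test of the difference itself with adjustment over all genes. The difference was 0.94 for EGFR (0.19 against -0.75) and 1.60 for ERRFI1 (-0.17 against -1.77), where the fall with FABP4 shRNA makes up most of it. With the second EGFR probe the difference was 0.53, which did not pass (adjusted p = 0.052 over all kept probes). It was 1.07 for HBEGF (0.017 against -1.06), but its adjusted p was between 0.052 and 0.068 under 6 of the alternatives. It was 0.77 for ERBB3 (0.66 against -0.11) and -0.75 for EREG (-0.65 against 0.10), where the rosiglitazone change makes up most of it. EREG was near the detection limit in UM-UC14, where a fall could hardly be measured. Line and perturbation cannot be told apart in these differences, and 41.5% of all tested genes passed the same test.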

How the results depend on the processing

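Of 528 values of members recomputed under the alternatives, 479 kept their direction and their side of the threshold, 14 lost the call, 14 gained it and 21 changed sign. None of the sign changes fell on a comparison in which that member was called with all arrays. The count of members called between lines was 4, and 2 without background correction, 2 with the authors' processed values, 2 with probes detected on all 12 arrays and 6 with array quality weights (HBEGF and TGFA added). The shares of all tested genes were 25.9%, 20.1%, 20.1%, 23.1% and 27.4% in that order. The count with rosiglitazone was 2 (36% of all tested genes), and 1 with probes detected on all 12 arrays (43.2%), since EREG then leaves the test. Fewer probes enter that filter by construction. Between lines EREG and BTC both leave the test under this filter, while EGFR and ERRFI1 stay called. In the shRNA comparison, 20 pathway genes passed, and 11 in a fit to the UM-UC14 arrays only and 13 against non-targeting replicate 1 alone.

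Leaving out each array in turn gave 2 members with rosiglitazone, 3 to 4 with FABP4 shRNA, 4 to 5 between lines and 4 to 6 for the difference of changes. Pathway counts were 14 to 19 with rosiglitazone (14 without rosiglitazone replicate 3) and 15 to 28 with FABP4 shRNA. The share of all tested genes that passed moved too, from 27% to 32.1% with rosiglitazone and from 17.9% to 39.5% with FABP4 shRNA. It ran from 25.2% to 27.9% between lines and from 35.7% to 50.8% for the difference of changes. With the replicate number as a block, members called numbered 2, 3, 4 and 5 in the same order and pathway genes 23 and 20, so the block changed no count by over 1.5 times.

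Sign changes under median scaling were HBEGF with rosiglitazone (-0.069), ERBB2 (0.024) and ERBB3 (0.043) with FABP4 shRNA, and ERBB2 (-0.086) and ERBB3 (-0.18) between lines. With the mean of all probes they were TGFA with FABP4 shRNA (-0.065) and ERBB3 between lines (-0.046). Against non-targeting replicate 1 alone they were ERBB2 (0.12) and ERBB3 (0.30) with FABP4 shRNA, and ERBB2 (-0.12) and ERBB3 (-0.39) between lines. With 1 array left out, ranges that crossed 0 were -0.037 to 0.073 for HBEGF with rosiglitazone. With FABP4 shRNA they were -0.31 to 0.089 for ERBB3, -0.064 to 0.12 for TGFA and -0.36 to 0.0062 for BTC. Between lines ERBB3 ran from -0.17 to 0.23, and the TGFA difference of changes from -0.18 to 0.0022. The cause of these changes was not tested. Values near the detection limit (EREG and BTC in UM-UC14) depend most on the background correction.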
